A study of Mus musculus with 16 samples.

Results

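Day 2 after optic nerve crush was compared with day 0 in EGFP-positive cells sorted from mouse retina. The comparison used 8 of the 16 libraries of the series, chosen by the day in their titles: 4 at day 0 and 4 at day 2. Optic nerve crush injures the axons of retinal ganglion cells behind the eye, and day 2 was the earliest time sampled after it. All libraries came from the Iba1-EGFP strain, in which EGFP follows the promoter of Iba1 (Aif1), a gene of microglia and other macrophages. Day 0 mice had no treatment and were 15 weeks old, and day 2 mice had the crush and were 13 weeks old. Crush and age therefore cannot be told apart, and no sham operation was compared here. The day 4 and day 7 mice, used in the fit and for the later days, were 13 and 16 weeks old. The titles end in a code of digits whose first 4 were taken as the batch: replicates 1 and 2 of each day share one start (batch 1) and replicates 3 and 4 another (batch 2). The rest of the code differed between day 0 and day 2 in batch 1 and was shared in batch 2, so within batch 1 the full code and the day cannot be told apart. Day 2 replicates 3 and 4 carry the prefix F and the other libraries M, a prefix the labels do not explain. Within batch 2 the prefix and day 2 therefore cannot be told apart. The labels do not state whether the libraries of a day are from different mice. P-values therefore refer to the spread among libraries, part of which may be technical.

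The 8 libraries held between 8647276 and 14054906 recovered reads, and 9493 to 16522 genes reached 1 FPKM (fragments per kilobase of gene, scaled to library size). The number of such genes did not differ between the days beyond the spread of the libraries (exact permutation test, two-sided, p = 0.83, where 4 against 4 libraries cannot give less than 0.0286). Defining microglial genes were abundant in all 8 libraries: Cx3cr1, the fractalkine receptor, lay between 137 and 409 FPKM at day 0 and between 175 and 441 at day 2, and P2ry12, a purinergic receptor of resting microglia, between 254 and 1223 and between 628 and 1050.2. The sorted cells were not free of other retinal RNA, since the mean level of the rod list, as log2(FPKM + 1), lay between 6.15 and 8.80 at day 0 and between 5.99 and 7.75 at day 2. The monocyte receptor gene Ccr2 did not exceed 0.18 FPKM in any library. Day 0 replicate 1 stood apart: the genes of the homeostatic microglia list summed to 12830 FPKM in it and to between 37411 and 54489 FPKM in the other 3 day 0 libraries, and it had the highest sums of the rod, cone, Mueller glia and endothelial lists. Xist was at or under 0.0946 FPKM in all 16 libraries, also in those with the prefix F.

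Microglia are the resident macrophages of the retina and keep their numbers by self-renewal. After injury they can re-enter the cell cycle, in which cyclins and their kinases drive a cell from DNA replication into mitosis, kinetochores and the spindle separate the chromosomes, and a protein ring divides the cell. Most genes of the last steps are nearly silent in resting cells, because repressor complexes at their promoters hold them off until the cell is dividing.

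Of 14795 genes tested, 37 were higher at day 2 (0.25%) and 9 were lower (0.0608%), 46 in all (0.311%; limma with Benjamini-Hochberg adjustment, threshold 0.05). The changes, given on the log2(FPKM + 1) scale throughout, were between 1.02 and 6.50 in size. All 4 day 2 libraries lay above all 4 day 0 libraries for all 37 rises, against 3.37% of all genes tested, and below them for all 9 falls, against 1.35%. The genes were called from these same libraries, so this separation is no separate support. Each of the 46 changes had the same sign in both batches, which follows from the separation. Among the 37 rises, 23 were named protein-coding genes and 19 of these belonged to the 6 lists of cell cycle genes used here. The other 4 were the histone genes Hist1h2ao, Hist1h2ap and H2ac8 and the interferon-response gene Slfn2. The remaining 14 were 9 processed pseudogenes, 4 small gene models annotated as miRNA and 1 long non-coding RNA, described with the genes they overlap or copy. No gene passed the test with batch 2 alone (1053 genes at an unadjusted p under 0.05) or with a covariate made of the Mueller glia and bipolar cell lists (926), and 1 gene, not among the 46, passed without the prefix F libraries (1596), whereas the comparison as reported had 1439 genes at an unadjusted p under 0.05. With the full code as covariate 126 genes passed. Days 0 and 2 share a full code only in batch 2, where the day 2 libraries carry the prefix F.

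**Figure D1:**
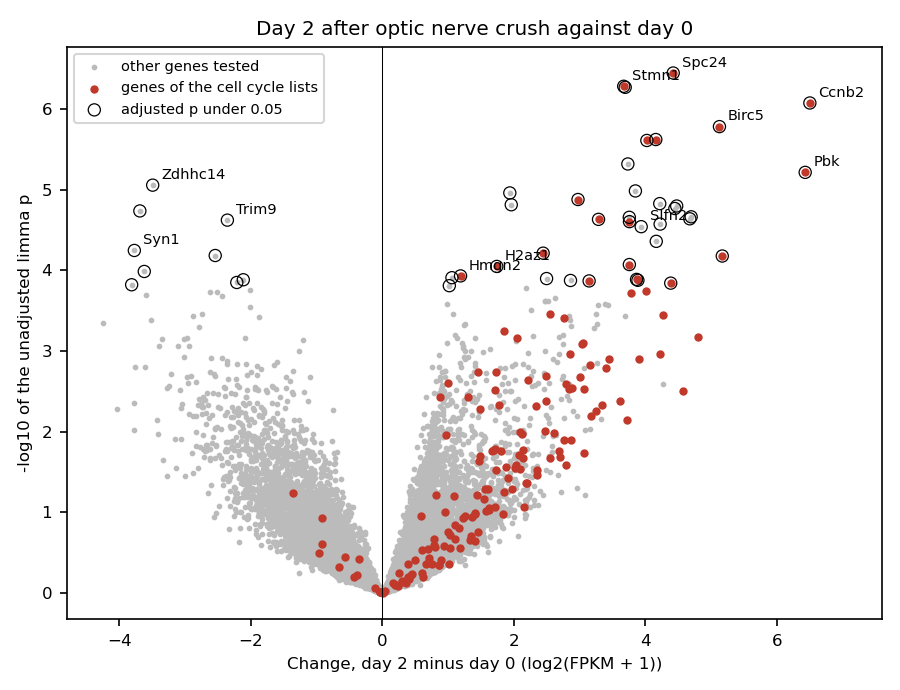
Change at day 2 against day 0 on the log2(FPKM + 1) scale (x axis) and the negative log10 of the unadjusted limma p (y axis) for each of the 14795 genes tested. Red points are genes of the cell cycle lists and circles mark the 46 genes with an adjusted p under 0.05. The cell cycle genes lie mostly to the right of 0, and the 9 falls are on the left.

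Most genes of the cell cycle lists had higher estimates at day 2. The lists were written with earlier results of these data known, so their shares are no separate support. Of their 192 genes, 167 were tested, 154 of these (92.2%) had a positive change and 65 had all 4 day 2 libraries above all 4 day 0 libraries, with a median change of 1.70. Over all genes tested, 52.6% had a positive change and the median was 0.04. All 4 day 2 libraries lay above all 4 day 0 libraries for 3.37% of all genes tested. The median change of the cell cycle genes was 1.07 within batch 1 and 2.23 within batch 2. Their mean level, as log2(FPKM + 1) over all 192 genes, was 1.57, 1.21, 1.03 and 1.01 in day 0 replicates 1 to 4 and 2.65, 2.41, 3.17 and 3.15 in day 2 replicates 1 to 4. The day 2 libraries were thus all above the day 0 libraries. The number of these genes at 1 FPKM or more was between 54 and 96 at day 0 and between 125 and 154 at day 2. The median stayed positive in all the alternative analyses, at 0.97 without the prefix F libraries and 1.57 with a covariate made of the Mueller glia and bipolar cell lists.

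Cyclins, kinases and other genes of mitotic entry held the largest rises. Of 30 tested, 6 rose, 26 had a positive change and the median change was 2.14. Ccnb2 (ENSMUSG00000032218.7, chromosome 9, 70407692 to 70421547, minus strand, GRCm38) encodes cyclin B2, a partner of the mitotic kinase. It was listed at 0 in 3 day 0 libraries and at 0.193 FPKM in replicate 2, and was at 112, 74.3, 108 and 86.2 FPKM in day 2 replicates 1 to 4. No day 2 library came near the day 0 range. The change was 6.50 ± 0.80 (SE, n = 4 per day; limma adjusted p = 0.0031), the largest of the comparison, and its call held when any single library was left out. Pbk (ENSMUSG00000022033.9), a mitotic kinase, was at 0, 1.70, 0.302 and 0 FPKM at day 0 and at 125, 51.8, 178 and 164 FPKM at day 2, a change of 6.43 ± 0.94 (limma adjusted p = 0.00999). Cdk1 (ENSMUSG00000019942.13), the kinase that cyclin B activates to start mitosis, was at 0.106, 2.63, 0 and 0.0147 FPKM at day 0 and at 16.7, 19.3, 26.0 and 18.0 FPKM at day 2. Its change was 3.87 ± 0.75 (limma adjusted p = 0.0475). Cks1b, a small subunit of cyclin-dependent kinases, was already present at day 0, at 13.6, 18.1, 0 and 8.58 FPKM, and reached 85.8, 96.3, 145 and 103 FPKM (3.89 ± 0.76, limma adjusted p = 0.0475).

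The other rises of this list were in genes that act on the mitotic kinase. Ube2c carries ubiquitin to cyclin B at the exit from mitosis. It was at or under 0.722 FPKM at day 0 and at 51.7, 26.3, 65.7 and 38.5 FPKM at day 2 (5.17 ± 0.94, limma adjusted p = 0.0316). Of its exon bases, 22.8% overlap Tnnc2 on the opposite strand, and the kit does not mark strand. Cdc25c, the phosphatase that activates the mitotic kinase, was at or under 0.678 FPKM at day 0 and at 4.13, 4.95, 5.44 and 7.12 FPKM at day 2 (2.45 ± 0.44, limma adjusted p = 0.0311). It overlaps Gm3550 on the opposite strand over 12.7% of its exon bases. When the 8 libraries were left out singly, the call of Pbk was lost once (limma adjusted p = 0.054), those of Cks1b, Ube2c and Cdc25c were kept in 1 of 8 fits, and that of Cdk1 in none (adjusted p up to 0.182).

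The kinetochore is the protein plate by which chromosomes hold on to the spindle, and of 30 genes of it and its checkpoint 3 rose, with a median change of 1.6. Spc24 (ENSMUSG00000074476.6, chromosome 9, 21755442 to 21760303, minus strand), a subunit of the Ndc80 complex that binds microtubules, was listed at 0 in 3 day 0 libraries and at 0.0382 FPKM in replicate 2. It was at 23.2, 17.4, 15.5 and 29.1 FPKM at day 2, a change of 4.43 ± 0.51 that was of like size in batch 1 (4.37) and batch 2 (4.48), with a limma adjusted p of 0.00265. Cenpa, the histone variant that marks the centromere, was at 0.569, 0, 0 and 0.0372 FPKM at day 0 and at 33.2, 12.8, 29.6 and 6.88 FPKM at day 2 (4.02 ± 0.54, limma adjusted p = 0.00517). Nuf2, another subunit of the Ndc80 complex, was at or under 0.0458 FPKM at day 0 and at 21.0, 6.53, 4.12 and 6.91 FPKM at day 2 (3.15 ± 0.61, limma adjusted p = 0.0475). The centromere genes Cenph, Cenpm and Oip5 had changes of 3.78, 4.27 and 3.04 with day 2 libraries above all day 0 libraries and did not pass the test (limma adjusted p = 0.0545, 0.076 and 0.116). A further subunit of the Ndc80 complex, Spc25, named here after its values were seen, was at 314, 179, 22.3 and 28.9 FPKM at day 0 and at 45.1, 66.6, 73.8 and 34.7 FPKM at day 2 (−0.56, limma adjusted p = 0.824). Its day 0 values were highest in replicates 1 and 2, which are of batch 1 and held the most Mueller glia and bipolar cell RNA. The cause was not tested.

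All 33 tested genes of the spindle and of cytokinesis had a positive change, with a median of 2.14, and 6 rose. Stmn1 (ENSMUSG00000028832.11, chromosome 4, 134468320 to 134473843, plus strand) encodes stathmin, which takes microtubules apart and is abundant in dividing cells. It was at 26.3, 13.8, 49.9 and 36.8 FPKM at day 0 and at 464, 305, 420 and 340 FPKM at day 2. Among the coding genes that rose, only H2az1 had a higher mean at day 2, and the change of Stmn1 was 3.67 ± 0.44 (limma adjusted p = 0.00265). Birc5, which encodes survivin of the chromosomal passenger complex, was at 0.46, 0, 0.0227 and 0 FPKM at day 0 and at 56.6, 23.6, 39.7 and 37.8 FPKM at day 2 (5.13 ± 0.67, limma adjusted p = 0.00487). Nusap1, a spindle-associated protein, was at or under 0.145 FPKM at day 0 and at 7.61, 15.4, 30.8 and 27.3 FPKM at day 2 (4.16 ± 0.56, limma adjusted p = 0.00517), with a change of 3.47 in batch 1 and 4.85 in batch 2. The calls of Stmn1, Birc5 and Nusap1, like those of Ccnb2, Spc24 and Cenpa, held when any single library was left out, whereas that of Nuf2 was kept in 1 of 8 such fits.

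The spindle list held 3 more rises. Knstrn, a spindle and kinetochore protein, had the least spread of these at day 2, at 11.9, 13.4, 10.7 and 10.9 FPKM, after 2.21, 0.458, 0.404 and 0.0141 FPKM at day 0 (2.98 ± 0.46, limma adjusted p = 0.0147). Prc1, which bundles the microtubules between the separating chromosomes, was at or under 0.266 FPKM at day 0 and at 10.9, 12.1, 18.6 and 14.3 FPKM at day 2 (3.76 ± 0.62, limma adjusted p = 0.0153). It overlaps Rccd1 on the opposite strand over 11.1% of its exon bases. Pimreg, a mitotic regulator, was listed at 0 throughout day 0, so no fold is given, and was at 10.1, 19.6, 11.6 and 10.6 FPKM at day 2 (limma adjusted p = 0.039). With single libraries left out, the call of Knstrn was kept in 5 of 8 fits, that of Prc1 in 4 and that of Pimreg in 1. Tuba1b, the abundant alpha tubulin of growing cells, was at 150, 189, 230 and 190 FPKM at day 0 and at 363, 246, 499 and 447 FPKM at day 2. Its day 2 libraries lay above all day 0 libraries with a change of 1.0 that did not pass the test (limma adjusted p = 0.18), and 27.4% of its exon bases are shared with other genes.

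**Figure D2:**
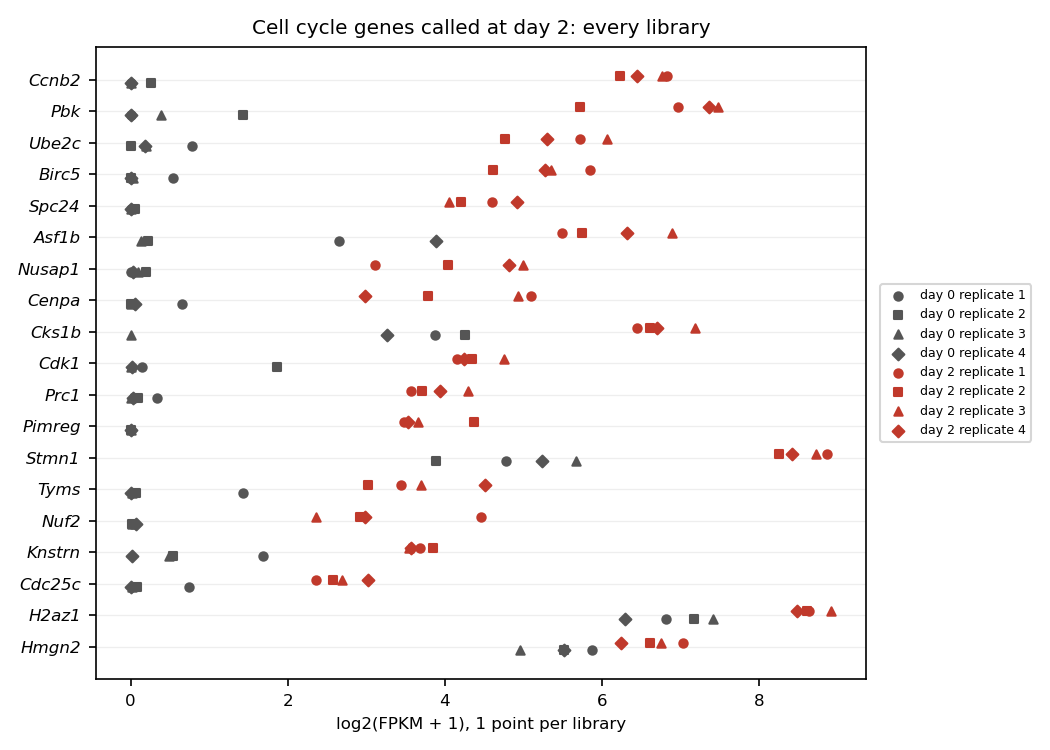
Level of the 19 cell cycle genes that rose at day 2, as log2(FPKM + 1) on the x axis, with 1 grey point for each day 0 library and 1 red point for each day 2 library. The days do not overlap for any of the 19 genes, and Stmn1, H2az1 and Hmgn2 are well above 0 in every day 0 library.

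Genes of DNA replication also had mostly positive changes. Of 35 tested genes of DNA synthesis and chromatin assembly, 2 rose, 33 had a positive change and the median was 1.41. Of 15 tested replication licensing genes none rose, 12 had a positive change and the median was 1.58. Tyms (ENSMUSG00000025747.12), thymidylate synthase, which makes the thymidine nucleotide of DNA, was at 1.69, 0.0484, 0.0127 and 0 FPKM at day 0 and at 9.86, 7.12, 12 and 21.9 FPKM at day 2 (3.29 ± 0.54, limma adjusted p = 0.0153). Asf1b, a chaperone that hands histones to new DNA, was at 5.31, 0.168, 0.0991 and 13.7 FPKM at day 0 and at 44.1, 52.5, 118 and 78.8 FPKM at day 2 (4.39 ± 0.86, limma adjusted p = 0.0483). Its lowest day 2 library was still above the highest at day 0. With single libraries left out, the call of Tyms was kept in 4 of 8 fits and that of Asf1b in 1.

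Several well-known replication genes had groups that did not overlap and a p above the threshold. All 4 day 2 libraries were above all of day 0 for 13 of the 35 DNA synthesis and chromatin assembly genes. This held for 0 of the 15 licensing genes and for 3.37% of all genes tested. Pcna, the sliding clamp of the DNA polymerase, was at 21.4, 26.6, 4.47 and 41.0 FPKM at day 0 and at 58.8, 62.7, 61.2 and 68.6 FPKM at day 2 (1.71 ± 0.48, limma adjusted p = 0.19). Rrm2, the regulated subunit of ribonucleotide reductase, was at or under 0.111 FPKM at day 0 and at 19.0, 13.0, 38.2 and 32.7 FPKM at day 2 (4.57 ± 1.30, limma adjusted p = 0.192). Tipin, a protein of the replication fork, was at 17.3, 19.8, 0 and 12.9 FPKM and then at 57.7, 82.7, 84.8 and 59.4 FPKM (3.06 ± 0.73, limma adjusted p = 0.116). The days overlapped for the helicase subunits. Mcm5 was at 1.83 FPKM in day 0 replicate 1 and at 0.116, 3.02, 28.6 and 51.1 FPKM at day 2. Its changes were 0.33 in batch 1 and 5.26 in batch 2 (limma adjusted p = 0.415). Mcm7 was at 25.6, 8.53, 37.7 and 36.2 FPKM at day 2, with changes of 2.91 and 3.42 (limma adjusted p = 0.155).

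Of 24 genes of chromosome structure 2 rose, 23 had a positive change and the median was 1.11. H2az1 (ENSMUSG00000037894.13, chromosome 3, 137864487 to 137866922, plus strand) encodes the histone variant H2A.Z and was abundant before the crush, at 112, 143, 170 and 77.0 FPKM. It reached 398, 391, 483 and 358 FPKM at day 2 (1.74 ± 0.33, limma adjusted p = 0.04). Hmgn2, a nucleosome-binding protein, had the smallest rise of the cell cycle genes, from 57.5, 44.6, 30.1 and 44.8 FPKM to 129, 96.4, 107 and 74.7 FPKM (1.19 ± 0.23, limma adjusted p = 0.0475). The calls of H2az1 and Hmgn2 were each kept in 1 of the 8 fits with a library omitted. Mki67, whose protein Ki-67 is the usual marker of dividing cells, was at or under 0.0782 FPKM at day 0 and at 3.45, 0.955, 5.74 and 7.61 FPKM at day 2 (2.21 ± 0.60, limma adjusted p = 0.175). Top2a, the topoisomerase that untangles chromosomes, was at or under 0.081 FPKM at day 0 and at 4.21, 2.07, 29.4 and 11 FPKM at day 2 (3.07 ± 0.86, limma adjusted p = 0.19). Both markers were above every day 0 library in all 4 day 2 libraries and did not pass the test.

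The remaining coding rises besides Slfn2 were 3 histone genes. Hist1h2ao and Hist1h2ap, on chromosome 13, have identical sequences over 94.2% of Hist1h2ao, so their reads cannot be told apart and they count as a single observation. Hist1h2ao was at 3.26, 1.66, 1.47 and 3.17 FPKM at day 0 and at 75.4, 48.7, 101 and 73.5 FPKM at day 2 (4.48 ± 0.71, limma adjusted p = 0.0147). H2ac8 (ENSMUSG00000069272.6), another H2A gene of chromosome 13, was at 0.693, 0.0754, 0.0592 and 0.0805 FPKM at day 0 and at 14.5, 8.60, 6.84 and 4.01 FPKM at day 2 (2.86 ± 0.56, limma adjusted p = 0.0475). With single libraries left out, the call of Hist1h2ao was kept in 4 of 8 fits and that of H2ac8 in none (adjusted p up to 0.156). The closest other coding match of H2ac8 was Hist1h2ad, at 97.3% identity over 64.1% of the bases of H2ac8. Whether the 2 genes share reads was not tested. The small models Gm19658, Gm44466 and Gm44394, annotated as miRNA and also among the rises, lie inside Hist1h2ao, Hist1h2ap and H2ac8 on the opposite strand. Their changes of 4.70, 4.68 and 4.23 give no separate evidence, since the kit does not mark strand. The messages of these histone genes lack a poly(A) tail in dividing cells, and the labels do not say how the cDNA synthesis was primed.

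The 9 processed pseudogenes among the rises each match a coding gene closely. Gm11223 is 99.8% identical to Stmn1 and had nearly its change, 3.70 against 3.67, and Gm6722 and Gm8203 match H2az1 at 96.9% and 100%, with changes of 1.96 and 1.94. The other parents did not pass the test themselves. Gm15452 and Gm19945 match Cks2, a sister of Cks1b, at 100% and 99.6%, and Cks2 was at 2.00, 0, 13.2 and 0 FPKM at day 0 and at 19.4, 55.4, 42 and 58.5 FPKM at day 2 (4.02 ± 0.81, limma adjusted p = 0.0535). Gm15428 matches Pclaf, a partner of Pcna, at 99%, and Pclaf had a mean of 0.0156 FPKM at day 0 and 12.9 FPKM at day 2 (3.69 ± 0.80, limma adjusted p = 0.076). Gm13160 matches Hmgb2, a chromatin protein, at 97.9%, and Hmgb2 was at 18.6, 6.48, 3.27 and 10.6 FPKM and then at 47.5, 43.5, 69.9 and 55.2 FPKM (2.55 ± 0.55, limma adjusted p = 0.0756). Gm48583 and Rbm3-ps match Rbm3, a cold-inducible RNA-binding protein outside the cell cycle lists, at 100% and 99.4%. They rose by 1.02 and 1.06, and Rbm3 had a change of 0.86 (limma adjusted p = 0.194). The sources used here do not give how reads that match both a gene and its copy were counted, so each pair is a single signal. Cks2, Pclaf and Rbm3 were named as the parents of these copies after their values were seen. Gm23634 lies within Stmn1, and the long non-coding RNA Gm44238 shares 45.3% of its exon bases with Lockd on the opposite strand.

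The promoters of the rising genes are shown because mitotic genes are known to share short elements near their start: a CCAAT box bound by NF-Y and a cell cycle homology element, TTTGAA or TTCGAA, bound by the MuvB complex that represses them in resting cells. Of the 23 named coding genes that rose, 16 had an entry in the RefSeq promoter table (GRCm38.p6), and the 250 bases before their start were searched on both strands for CCAAT, for the elements TTTGAA and TTCGAA, and for the related TTTAAA. Forms of the E2F site were searched as well, namely TTTCCCGC, then the form TTTGGCGC, and the form TTTCGCGC. Each sequence below is 5′ to 3′ on the strand of its gene, with matches to these motifs in capitals (ATTGG is CCAAT on the other strand). Ccnb2 is the largest rise (minus strand, chr9:70421555-70421804), Cdk1 its kinase partner (minus strand, chr10:69352913-69353162), H2az1 a gene already active at day 0 (plus strand, chr3:137864237-137864486), and Nusap1 a rise with no match to any of the motifs (plus strand, chr2:119618048-119618297). The last 26 bases of the Cdk1 window lie inside the gene as the deposited table has it, and the other 3 printed windows lie outside their genes. Among the 16 windows searched, those of Hmgn2, Asf1b, Cenpa, Cks1b, Ube2c and Prc1 also lie wholly or in part inside the deposited gene.
Ccnb2: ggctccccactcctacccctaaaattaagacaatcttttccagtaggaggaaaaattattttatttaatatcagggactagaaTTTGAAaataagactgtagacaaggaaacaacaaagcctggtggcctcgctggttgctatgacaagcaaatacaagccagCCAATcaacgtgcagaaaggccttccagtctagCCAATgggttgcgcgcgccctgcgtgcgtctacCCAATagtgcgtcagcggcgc
Cdk1: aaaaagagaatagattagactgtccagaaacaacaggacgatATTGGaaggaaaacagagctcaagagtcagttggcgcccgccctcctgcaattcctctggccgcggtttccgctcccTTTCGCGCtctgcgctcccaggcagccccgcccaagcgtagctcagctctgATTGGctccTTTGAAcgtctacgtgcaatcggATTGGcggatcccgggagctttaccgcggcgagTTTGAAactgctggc
H2az1: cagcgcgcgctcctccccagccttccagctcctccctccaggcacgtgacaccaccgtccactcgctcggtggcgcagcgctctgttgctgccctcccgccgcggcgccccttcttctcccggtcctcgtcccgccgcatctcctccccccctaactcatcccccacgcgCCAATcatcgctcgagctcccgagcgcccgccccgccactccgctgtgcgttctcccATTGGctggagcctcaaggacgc
Nusap1: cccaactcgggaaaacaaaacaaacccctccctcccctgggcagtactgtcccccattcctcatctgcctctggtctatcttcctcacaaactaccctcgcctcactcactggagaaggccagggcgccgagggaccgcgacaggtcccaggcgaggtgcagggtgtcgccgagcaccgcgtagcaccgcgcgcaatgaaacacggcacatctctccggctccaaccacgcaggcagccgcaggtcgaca

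The Ccnb2 window has CCAAT 3 times, starting 87, 54 and 21 bases before the start of the gene, and TTTGAA at 167. The Cdk1 window has CCAAT 3 times, TTTGAA at 71 and 15, and the E2F form TTTCGCGC at 131. The H2az1 window has CCAAT at 80 and 23 and no cell cycle homology element. CCAAT was found in 10 of the 16 windows (62.5%) and in 34.5% of the 27025 genes with a promoter entry, and 2 or more CCAAT in 8 (50%) and 10.5%. CCAAT together with TTTGAA or TTCGAA was found in 6 windows (37.5%) and in 6.21% of all: those of Ccnb2, Cdk1, Cks1b, Ube2c, H2ac8 and Asf1b. TTTAAA was in 3 windows (12.1% of all promoters hold it), and TTTCGCGC in that of Cdk1 alone (0.255% of all). TTCGAA, TTTCCCGC and TTTGGCGC were in none of the 16 windows and in 1.34%, 0.929% and 0.437% of all promoters. These are matches of letters in a fixed window, in part short and common ones, and no measure of binding.

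No gene of the lists around the cell cycle passed the test. Of 22 tested G1 cyclins, CDK inhibitors and quiescence genes 9 had a positive change and the median was −0.15. Cdk4, the kinase of the G1 cyclins, was at 36.2, 35.7, 34.7 and 41.2 FPKM at day 0 and at 48.4, 50.1, 68.2 and 58.2 FPKM at day 2 (0.58 ± 0.20, limma adjusted p = 0.314, with 19.7% of its exon bases shared with Tspan31). The CDK inhibitors Cdkn2c and Cdkn2d had changes of 2.3 and 2.55 (limma adjusted p = 0.372 and 0.389), and Btg2, an antiproliferative gene also on the immediate early list, had −1.52 (adjusted p = 0.289). Microglial growth factor signalling had a median of 0.06 over 20 genes, nucleotide and one-carbon metabolism 0.25 over 26 and the nucleolus and ribosome biogenesis −0.01 over 30. Each of these 4 medians had the opposite sign in some alternative analyses.

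Genes of energy supply and protein turnover had small changes and none passed. The proteasome list had 30 of 35 genes with a positive change and a median of 0.46, with Psma1 at 64.1, 86.4, 31.3 and 85.7 FPKM at day 0 and at 105, 128, 136 and 144 FPKM at day 2 (1.02 ± 0.34, limma adjusted p = 0.301). Oxidative phosphorylation had a median of 0.29 over 39 genes, with Sdhb, a subunit of complex II, at 1.15 (limma adjusted p = 0.329). Glycolysis had 6 of 19 genes with a positive change and a median of −0.68. Ldha, lactate dehydrogenase, was at 433, 276, 330 and 274 FPKM at day 0 and at 287, 195, 202 and 143 FPKM at day 2 (−0.68 ± 0.26, limma adjusted p = 0.367), and Tpi1, an enzyme of the middle of the pathway, had a change of −0.76 (adjusted p = 0.334). Glycolytic genes are also abundant in photoreceptors, and the median of the rod list was −0.25. The part of rod RNA in these changes was not tested.

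**Figure D3:**
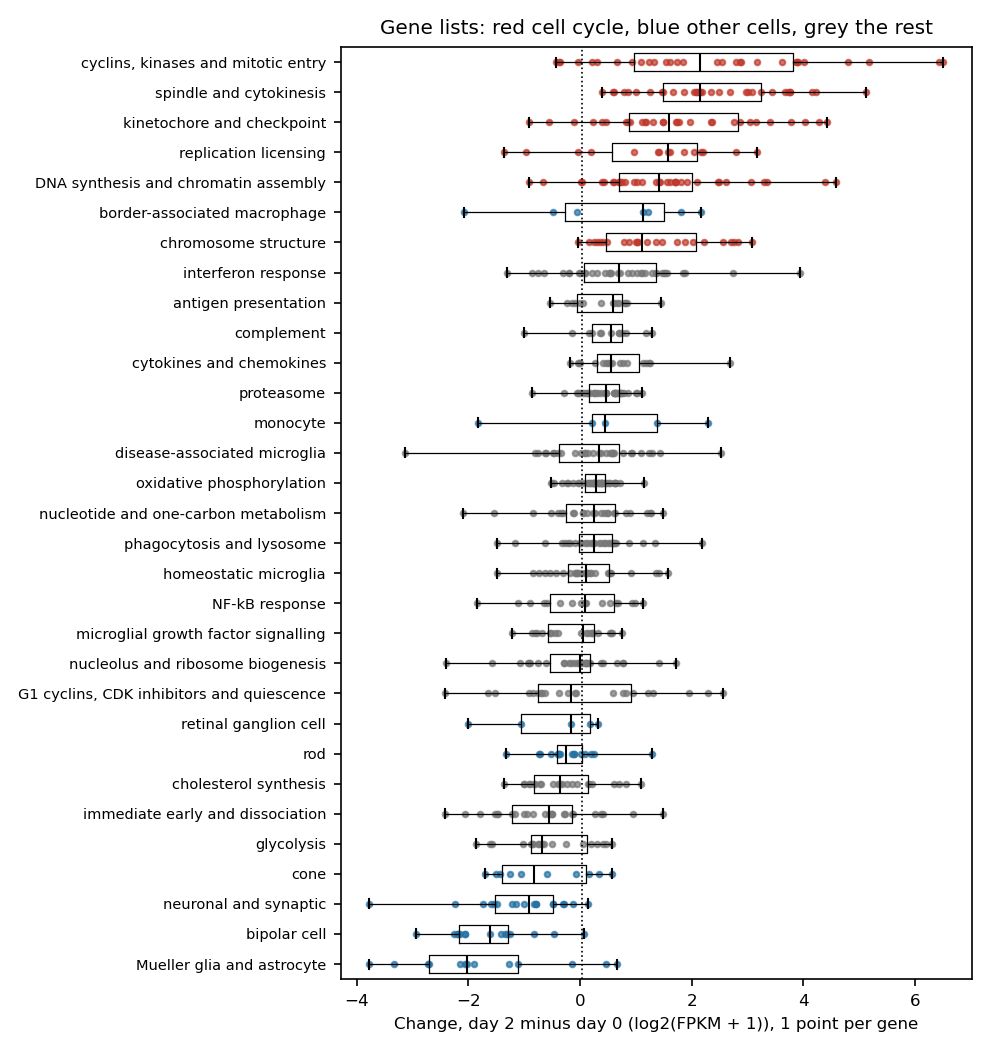
Change of every tested gene in the lists with at least 5 tested members (points, log2(FPKM + 1) scale, x axis), with a box for the quartiles, a line at the median and whiskers to the extremes. Lists are ordered by median, the dotted line is the median of all genes tested (0.04), and the 6 cell cycle lists (red) are at the top with the border-associated macrophage list, while the bipolar cell and Mueller glia lists (blue) are at the bottom.

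Slfn2 (ENSMUSG00000072620.3, chromosome 11, 83065112 to 83070678, plus strand) was the only gene of the 36 tested interferon-response genes that passed. It encodes a schlafen protein that is induced by interferon and is known from the control of proliferation in immune cells. It was at 8.46, 0.118, 1.25 and 0 FPKM at day 0 and at 17.9, 29.7, 79.7 and 27.0 FPKM at day 2 (3.94 ± 0.66, limma adjusted p = 0.0163). The change was 2.89 in batch 1 and 4.99 in batch 2, and the call of Slfn2 was kept in 4 of 8 fits with a library omitted. Of the 36 genes, 28 had a positive change, with a median of 0.70 that was −0.03 within batch 1 and 1.31 within batch 2. Ifi27l2a was at 59.3, 203, 252 and 271 FPKM at day 0 and at 679, 642, 1252 and 258 FPKM at day 2, with 3 of 4 libraries above all of day 0 (1.85 ± 0.49, limma adjusted p = 0.167). Oas1a, a sensor of double-stranded RNA, was at 7.70, 13.7, 0 and 11.9 FPKM and then at 78.5, 13.9, 53.6 and 50.1 FPKM (2.74 ± 0.74, adjusted p = 0.172). Phf11b, Ifi204 and Ifitm3 had changes of 1.46, 1.36 and 0.93 (limma adjusted p = 0.244, 0.25 and 0.318), with 3 of 4 day 2 libraries above all of day 0 each.

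No gene of the microglial identity and activation lists passed the test at day 2. The 28 homeostatic genes had a median change of 0.11, with 16 positive, and Olfml3, P2ry6 and Sall1 had changes of 1.41, 1.36 and 1.58 (limma adjusted p = 0.155, 0.374 and 0.419). Olfml3, a secreted protein typical of microglia, was at 39.9, 72.6, 221 and 219 FPKM at day 0 and at 194, 190, 441 and 444 FPKM at day 2, so batch 2 lay above batch 1 on both days and the days overlapped. The 31 disease-associated microglia genes had a median of 0.34, with 21 positive. Cd52 was at 78.6, 311, 409 and 326 FPKM and then at 561, 557, 666 and 495 FPKM (1.24 ± 0.37, limma adjusted p = 0.22), while Cd68, a lysosomal glycoprotein of active macrophages, had a change of 1.70 within batch 1 and 0.17 within batch 2 (adjusted p = 0.263). Of 18 cytokines and chemokines 14 had a positive change, with a median of 0.55. Ccl12 was at 65.6, 420, 350 and 432 FPKM and then at 617, 375, 979.8 and 582 FPKM (1.24 ± 0.43, limma adjusted p = 0.311), and Ccl4 was at 180, 99.1, 68.6 and 14.1 FPKM at day 2 (0.84, adjusted p = 0.744).

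The lists of complement, phagocytosis and antigen presentation had medians of 0.56 over 13 genes, 0.24 over 32 and 0.59 over 15, and NF-kB response genes 0.09 over 18. Each of these medians was negative in at least 1 alternative, at −0.15, −0.23, −0.16 and −0.59 at the lowest, as were the homeostatic (−0.49) and disease-associated (−0.25) medians. Fcgr2b, the inhibitory Fc receptor, was at 12.7, 27.0, 34.5 and 57.4 FPKM at day 0 and at 106, 53.7, 78.0 and 71.2 FPKM at day 2, with 3 of 4 libraries above all of day 0 (1.35 ± 0.33, limma adjusted p = 0.131). The complement receptor C5ar1 had a change of 1.18 (limma adjusted p = 0.363), and Ctsc and Ctsh, lysosomal proteases, had changes of 1.13 and 0.62 (adjusted p = 0.192 and 0.299). Immediate early and dissociation genes had 5 of 25 genes with a positive change and a median of −0.56, which was −2.04 within batch 1 and 0.23 within batch 2. Ier2 was at 207, 63.8, 22.5 and 54.8 FPKM at day 0 and at 9.94, 10.2, 19.5 and 22.3 FPKM at day 2, below all day 0 libraries (−2.06 ± 0.58, limma adjusted p = 0.19). Jun had a change of −5.50 within batch 1 and 0.66 within batch 2 (−2.42 over both, adjusted p = 0.466).

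The day 2 change differed between the batches for 10 of the 14795 genes (0.0676%), none of them among the 46 called genes.

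Later days were set beside day 2 for the 37 rises and 9 falls. Age differed between days 2 and 7 (13 and 16 weeks) and between day 0 and every other day. Day and age cannot be told apart in those contrasts. The full title code also differed between days 2 and 4 in both batches, and between days 2 and 7 in batch 2. In batch 2 the prefix differed between day 2 and every other day. Day 4 and day 7 against day 0 share the day 0 libraries with the comparison above, so a gene high or low at day 0 appears in each. Of the 37 rises, 32 were also higher at day 4 against day 0 (4.62% of all genes tested were) and 5 at day 7 against day 0 (0.27%). Those at day 7 were Ccnb2, Birc5, Slfn2, Rbm3-ps and Gm48583. The direct contrasts share the day 2 libraries instead. At day 4, 29 of the 37 had a lower estimate than at day 2 and 1 was called lower (0.0203% of all genes tested). At day 7, 34 had a lower estimate and 3 were called lower (0.0473%).

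The gene called lower at day 4 was Cdc25c. It was at 5.41 ± 1.26 FPKM (SD, n = 4) at day 2 and at or under 0.0261 FPKM in all 4 day 4 libraries, a change of −2.64 ± 0.44 (limma adjusted p = 0.0208). At day 7 it was at 0.0419, 1.66, 3.55 and 0.258 FPKM. Of the other mitotic entry genes, Cdk1 was at 50.9, 45.0, 5.58 and 9.29 FPKM at day 4 and Ccnb2 at 79.4, 44.0, 3.15 and 17.8 FPKM, so that replicates 1 and 2, of batch 1, were high and replicates 3 and 4, of batch 2, were low. Spc24 fell from 21.3 ± 6.1 FPKM at day 2 to 0, 0.0804, 1.79 and 0 FPKM at day 7 (−4.04 ± 0.51, limma adjusted p = 0.00802). Nusap1 fell from 20.3 ± 10.7 to 3.90, 2.33, 0 and 0.15 FPKM (−3.18 ± 0.56, adjusted p = 0.0494) and Knstrn from 11.7 ± 1.2 to 0.98, 0.752, 2.66 and 0.0905 FPKM (−2.71 ± 0.46, adjusted p = 0.0443). Slfn2 did not follow them, at 57.9 ± 4.6 FPKM at day 4 and 93.7 ± 52.5 FPKM at day 7. When day 2 libraries were left out singly, the calls between day 2 and the later days among the 37 rises were lost at day 4 without replicate 2, 3 or 4, and were 1, 1 and 0 at day 7 without replicates 2, 3 and 4.

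**Figure D4:**
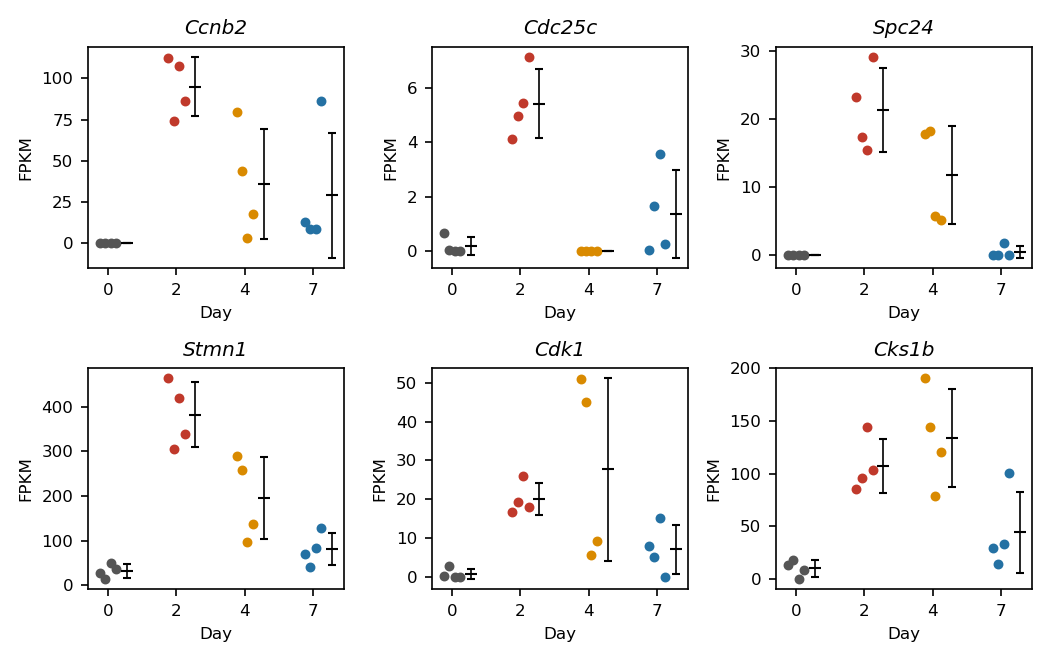
FPKM of Ccnb2, Cdc25c, Spc24, Stmn1, Cdk1 and Cks1b (y axes, linear and including 0) at days 0, 2, 4 and 7 (x axes), with 1 point per library and the mean ± SD of 4 libraries as a black bar. Cdc25c is at 5.41 FPKM at day 2 and near 0 at day 4, while Cks1b is as high at day 4 as at day 2.

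Across the lists, day 4 against day 2 had 64 genes higher (0.433%). The cell cycle lists had a median of −0.05 in this contrast with 1 gene lower. Over all genes tested the median was 0.16 and 0.0203% were lower. At day 7 against day 2 the cell cycle lists had a median of −1.25 with 4 genes lower. Over all genes tested the median was then −0.09 and 0.0473% were lower. The nucleolus and ribosome biogenesis list, with no gene called at day 2, had a median of 1.56 at day 4 against day 2 with 4 of 30 genes higher: Nolc1, Nop56, Nhp2 and Srm, named after their values were seen (changes of 4.18, 2.43, 3.03 and 2.68, limma adjusted p = 0.0153, 0.0227, 0.0454 and 0.0143). The cytokine list had a median of 2.33 with 6 of 18 genes higher at day 4 than at day 2. Ccl12 went from between 375 and 979.8 FPKM at day 2 to between 4923 and 12112 FPKM at day 4 (3.62, limma adjusted p = 0.00345) and Ccl4 rose by 3.85 (adjusted p = 0.0208). Ier2, Ldha, Tpi1 and Cdk4 were also higher at day 4 than at day 2 (3.43, 1.40, 1.37 and 1.03, limma adjusted p = 0.0208, 0.0291, 0.0409 and 0.0409).

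The 9 falls had means of 4.02 FPKM or more at day 0 and of 1.29 FPKM or less at day 2. Several of their proteins have known roles in neurons. Syn1 (ENSMUSG00000037217.15, chromosome X, 20860511 to 20921004, minus strand), a protein of synaptic vesicles, was at 10.5, 11, 17.6 and 18.5 FPKM at day 0 and at or under 0.123 FPKM at day 2 (−3.77 ± 0.68, limma adjusted p = 0.0299). Trim9, a ubiquitin ligase of neurons, was at 4.89, 5.91, 4.1 and 3.30 FPKM and then at or under 0.189 FPKM (−2.35 ± 0.39, limma adjusted p = 0.0153). Aatk, a kinase of the nervous system, was at 4.12, 3.22, 6.33 and 6.90 FPKM and then at or under 0.0874 FPKM (−2.54 ± 0.46, limma adjusted p = 0.0316).

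The other falls were of genes with wider use. Zdhhc14, a palmitoyl transferase, was at 5.42, 7.22, 26.5 and 12 FPKM at day 0 and at or under 0.145 FPKM at day 2 (−3.49 ± 0.53, limma adjusted p = 0.013). Its call was kept in 6 of 8 fits with a library omitted, that of Trim9 in 3, those of Syn1, Aatk and Zfp740 in 1 each, and those of Ube2o and Bicdl1 in none. Zfp740, a zinc finger protein, was at 18.1, 6.73, 9.81 and 19.6 FPKM and then at or under 0.167 FPKM (−3.62 ± 0.69, limma adjusted p = 0.0448). Bicdl1, an adaptor of the dynein motor, was at 12.3, 8.14, 4.52 and 7.93 FPKM and then at 2.22, 2.89, 0 and 0.0347 FPKM (−2.21 ± 0.43, adjusted p = 0.0483). Ube2o, a ubiquitin-conjugating enzyme with a mean of 4.02 FPKM at day 0, fell by 2.11 (limma adjusted p = 0.0475), and Mir7666, inside Micu3, was listed at 0 throughout day 2 (limma adjusted p = 0.0495). Of the 9, 7 were also lower at day 4 against day 0 (0.716% of all genes tested) and 3 at day 7 (0.135%), and none was called higher at day 4 or day 7 than at day 2.

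Lists of other retinal cells had mostly negative changes as well. Of 18 neuronal and synaptic genes 17 had a negative change, with a median of −0.91 and only Syn1 called. Vamp2, a protein of synaptic vesicle release, was at 115, 43.8, 45.4 and 37.8 FPKM at day 0 and at 35.8, 31.3, 19.6 and 14.6 FPKM at day 2 (−1.15, limma adjusted p = 0.44), and Camk2b had a change of −2.24 (adjusted p = 0.197). Of 15 bipolar cell genes 14 had a negative change, with a median of −1.62, and Car8 and Trpm1 had changes of −2.93 and −2.19 (limma adjusted p = 0.12 and 0.23). The Mueller glia list had 11 of 13 genes with a negative change and a median of −2.02, of −3.46 within batch 1 and −0.28 within batch 2. Its genes summed to 2105, 1149, 189 and 249 FPKM in the day 0 libraries and to 103, 141, 130 and 119 FPKM in those of day 2. These sums did not overlap. The mean level of the list, as log2(FPKM + 1), did overlap. It lay between 2.14 and 5.54 at day 0 and between 1.56 and 2.28 at day 2. Of the 13 genes, 2 had all 4 day 2 libraries below all 4 day 0 libraries, against 1.35% of all genes tested. Glul, glutamine synthetase, was at 322, 140, 63.9 and 51.9 FPKM and then at 50.8, 41.3, 50.02 and 41.1 FPKM (−1.26 ± 0.40, limma adjusted p = 0.263), and Dkk3 and Clu had changes of −3.77 and −2.72 (adjusted p = 0.219 and 0.203). In bulk samples, fewer cells of a type and less RNA per cell cannot be told apart.

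**Figure D5:**
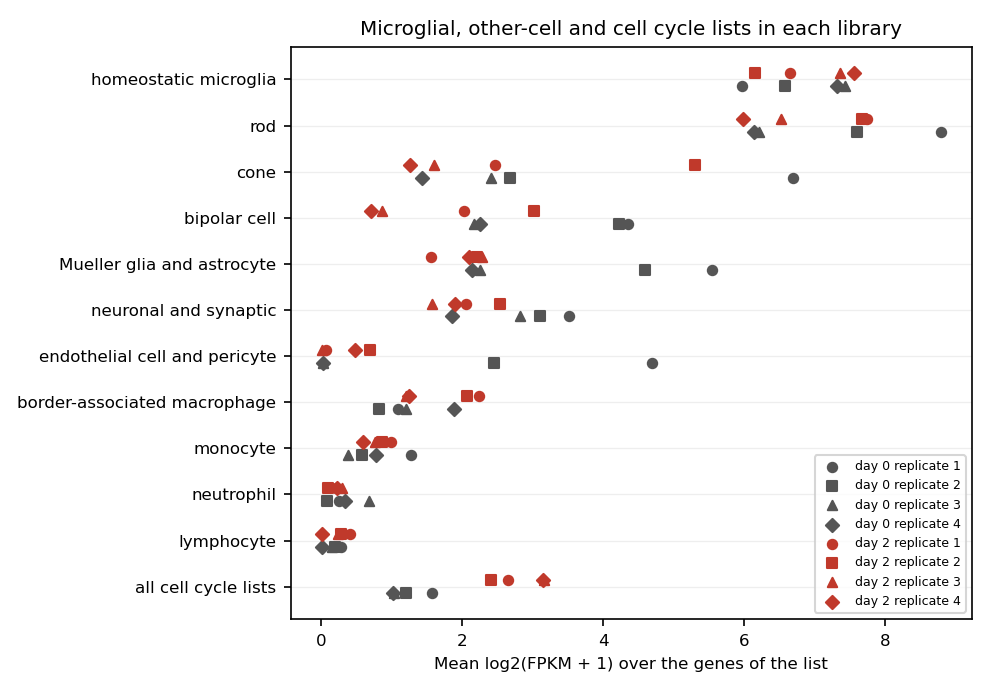
Mean log2(FPKM + 1) of marker lists (x axis) in each day 0 library (grey) and day 2 library (red), with a marker shape per replicate. The cell cycle list separates the days, the bipolar cell and Mueller glia lists are highest in day 0 replicates 1 and 2, and the monocyte, neutrophil and lymphocyte lists are low in all 8 libraries.

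Other myeloid cells can pass an Iba1 gate. Of the border-associated macrophage list 7 of 11 genes were tested and none passed, and the list summed to between 33.9 and 208 FPKM at day 0 and between 65.5 and 196 FPKM at day 2. Lyve1, one of its markers, was at 3.36, 13.9, 12.7 and 7.89 FPKM at day 0 and at 0.0396, 0.398, 1.58 and 5.80 FPKM at day 2 (−2.07 ± 0.53, limma adjusted p = 0.154), and Pf4 had a change of 1.13 (adjusted p = 0.626). The monocyte list summed to between 6.59 and 56.0 FPKM at day 0 and between 11 and 39.7 FPKM at day 2. Ms4a4c, a gene of that list, was at 0, 0.0562, 0.0441 and 8.11 FPKM and then at 11.3, 4.34, 10.7 and 6.47 FPKM (2.29 ± 0.60, limma adjusted p = 0.162). The neutrophil and lymphocyte lists summed to at most 16.6 FPKM in any of the 8 libraries. Without day 0 replicates 1 and 2, the libraries with the most bipolar cell, Mueller glia and endothelial RNA, the median change of the cell cycle lists was 1.78 and 19 genes passed, 4 of them cell cycle genes.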

How the data were processed

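Retinal EGFP-positive cells were sorted by FACS and lysed, and amplified cDNA was made into Nextera XT libraries, which do not mark strand, per the labels' protocols. The submitters' processing notes name STAR 2.7.2b, featureCounts 1.6.1 and GRCm38.p6 (mm10). The authors deposited FPKM values per gene for 16 libraries. From these, log2(FPKM + 1) was fitted with limma 3.58.1 in R 4.3.3 (lmFit, eBayes with trend), 1 fit over the 16 libraries of 4 days with batch as covariate and 11 residual degrees of freedom. Genes needed 1 FPKM in 4 libraries (14795 of 55385), and Benjamini-Hochberg adjusted p under 0.05 was called. This scale understates changes of low genes. Reads were recovered from the FPKM steps. In the libraries of days 0 and 2, 47.1% to 61.4% of the genes above 0 held a whole number of reads. For 100% the value was a multiple of 0.01 read (tolerance 0.02 steps of 0.01 read). A floor of 3 reads in 1 kb was 0.213 to 0.347 FPKM, and covers counting error only. Copies were matched with blastn 2.17.0. Called genes with non-overlapping groups and a mean of 5 FPKM in the higher group are named, as are the members of each list with the smallest p. The fit was tested on simulated data with normal noise, where changes were placed only in genes of higher level and below-median spread. Changes in genes near 0 at day 0, as many called genes were, were not simulated. Members and lists were chosen with earlier results of these data known. Some called or marker genes are not reported here.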

Additional observations from a re-analysis of the deposited data

Results flagged for a closer look

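Of 180 groups of 4 libraries, 22 held a library far from the other 3, where normally distributed values would give about 1 in 20. The 180 include groups without any spread, such as Pimreg at day 0, which could not be examined. The rate of 1 in 20 does not hold for groups at or near 0. In Ccnb2 and Spc24 at day 0, for example, the other 3 libraries were listed at 0, so a trace was enough. In 19 of them the library was of day 0. Day 0 replicate 1 was high for Cdc25c (0.678 FPKM), Cenpa (0.569), Cenpm (0.58), Birc5 (0.46), Tyms (1.69), Mcm5 (1.83), Ncapg (0.288), H2ac8 (0.693), Ank (10.7) and Vamp2 (115), and low for Cd52 (78.6) and Ccl12 (65.6). Day 0 replicate 2 was high for Ccnb2 (0.193 FPKM), Cdk1 (2.63), Spc24 (0.0382) and Mki67 (0.0782). Day 0 replicate 3 was low for Tipin, listed at 0, and replicate 4 was high for Nuf2 (0.0458 FPKM) and Ms4a4c (8.11). Day 2 replicate 2 was high for Aatk (0.0874 FPKM), Car8 (0.0232) and Trpm1 (1.12).

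The day 2 change differed between the batches for 10 of 14795 genes (0.0676%, limma adjusted p under 0.05), none of them among the 46 called genes. The change in batch 2 minus that in batch 1 was 4.31 for Plscr4, 4.16 for Slc35g2, 6.52 for Acadl, 6.70 for Slc31a2, 7.02 for Bcat1, 3.91 for Map9 and 5.12 for Mcm3ap. Bcat1 had a change of −4.47 within batch 1 and 2.55 within batch 2, and Slc31a2 −1.12 and 5.58. These genes were singled out after their values were seen.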

How the results depend on the processing

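The number of called genes depended on the settings, while the 31 named coding genes among the calls kept their sign in every alternative. In the fits of a single batch that sign follows from the separation of the libraries by day. Of 46 calls (37 higher, 9 lower, 19 cell cycle), no filter on low values left 14 (12, 2 and 8), batch 1 alone 20 (13 higher, 6 cell cycle), batch 2 alone 0 (0, 0 and 0), no prefix F libraries 1 (0, 1 and 0), and the bipolar cell and Mueller glia covariate 0 (0, 0 and 0). The full title code gave 126 (112, 14 and 40). The lower calls were 5 with a filter of 5 FPKM and 16 with median-of-ratios factors, where 69.8% of calls were higher against 80.4%. Without day 0 replicates 1 and 2, an alternative chosen after seeing the data, 19 were called (13 higher, 4 cell cycle). Leaving out single libraries gave 8 to 77 calls, 8 to 35 higher, 0 to 42 lower and 6 to 17 in the cell cycle lists. It gave 1 to 21 genes that differ between batches, and 0 to 1 and 0 to 2 of the rises lower at day 4 and day 7 than at day 2. The genes that differ between batches numbered 10 as reported, 209 with no filter, 3 with the 5 FPKM filter, 0 with the 8 libraries only and 18 with median-of-ratios factors. With the replicate number as a block, 30 genes were called (5 lower, 11 cell cycle). The numbers did not pair the samples: the correlations of same-numbered libraries were 0.002, 0.149, 0.088 and 0.109. Jun reversed to 0.66 in batch 2 alone and 0.13 with the covariate, Spc25 to 0.97, 0.89 and, without day 0 replicates 1 and 2, 0.34, and Cd68 to −0.070 with the covariate. The cause was not tested.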
